A study of Mus musculus with 12 samples.

Results

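The insulin-like growth factor (IGF) genes described here are 8 genes taken by name from the mouse annotation: the ligand genes Igf1 and Igf2, the receptor gene Igf1r, and the binding protein genes Igfbp2, Igfbp3, Igfbp4, Igfbp5 and Igfbp6. They are 8 of 22350 protein-coding genes on chromosomes 1 to 19 and X, and none was chosen by a measured value. Around each gene, 6 histone H3 marks were read in C2C12 cells, a mouse muscle precursor line that divides as single myoblasts in serum and fuses into multinucleate myotubes when serum is withdrawn.

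The ligands IGF-I and IGF-II bind the tyrosine kinase receptor encoded by Igf1r, which signals to muscle growth and differentiation, and muscle cells both make and respond to them. The IGF binding proteins are secreted proteins that hold the ligands outside the cell and, depending on the protein and the setting, restrain or prolong their action. Igf2 is an imprinted gene, read mainly from the paternal copy, and lies beside the maternally read noncoding gene H19, and the reads used here do not separate the parental copies.

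The data hold 1 chromatin immunoprecipitation (ChIP-seq) library for each mark in each cell type, 12 in all. The myoblast group was near-confluent C2C12 cells of passages 15 to 18 in 10% serum, labelled as strain C3H. The myotube group was the same line about 5 days after serum withdrawal, freed of unfused cells with light trypsin, and neither group carried a further treatment. H3K4me3 and H3K27ac mark active promoters, H3K27ac also active enhancers, H3K4me1 and H3K4me2 promoter flanks and enhancers, H3K36me3 the bodies of transcribed genes, and H3K27me3 genes held silent by Polycomb proteins.

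With 1 library per mark and cell type there was no replicate spread, so no test of a difference was possible and no p-value is given. Each comparison is between 2 libraries and not between 2 conditions. A level is given as fold, the reads in a window over the number that the mean density of that library would place there, with its exact 95% Poisson interval in brackets. A ratio is myotube over myoblast reads scaled by the total reads of both libraries, with an exact conditional binomial 95% interval. These intervals cover counting error only, and reads amplified in 15 PCR cycles are not independent molecules. A ratio was called higher at 2 or more and lower at 0.5 or less, where both libraries together held at least 20 reads in the window.

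The libraries held between 1858771 and 7033100 reads, a mean of 0.727 to 2.75 reads per kb, so a level near 1 rests on few reads in a 2 kb window. Marker genes were read first. All 8 myotube genes (among them Myog, the myogenic regulator myogenin, and Acta1, skeletal actin) were called higher for H3K4me3 and for H3K27ac at the promoter, with H3K27ac folds of 0 to 12.4 in myoblasts and 16.2 to 132 in myotubes. For H3K36me3 over the gene body 6 of the 8 were called higher, and Myog and Atp2a1 were not called. All 3 genes of cycling cells (Ccnb1, Mki67 and Mcm5) were called lower for H3K4me3 and H3K27ac at the promoter and for H3K36me3 over the gene body. The 5 defining genes of liver, blood, endothelium, neurons and fat had H3K27ac folds of at most 0.688. The myotube libraries were flatter at promoters as a whole: the median ratio over promoters with at least 20 reads was 0.869 for H3K4me3, 0.590 for H3K4me2, 0.577 for H3K27ac, 0.861 for H3K4me1, 0.932 for H3K36me3 and 0.754 for H3K27me3. The share of calls in each direction over all promoters is therefore printed beside the counts, and for H3K27ac and H3K4me2 calls are also given with the ratio divided by the median of marked promoters, those among the 10488 covered by both H3K4me3 peak lists that had enough reads.

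Sequences of the mm9 genome (assembly NCBIM37) are shown for Igf1r, Igfbp2 and Igfbp5, which were called for H3K27ac, and for a region downstream of Igf2. Igfbp6 was also called but is not shown. Beside them stand an Igf2 promoter with few reads of any mark and the Igf2 site of ZBED6, the transcription factor that the study is about. The first 4 are the 250 bases upstream of a transcription start site (TSS) on the coding strand. This is the first annotated TSS for Igf1r, Igfbp2 and Igfbp5 and an internal one for Igf2. For Igfbp2 and Igfbp5 the call was made at a later TSS. The fifth is the 300 bases with most myotube H3K27ac reads in the region downstream of Igf2, on the plus strand. Capitals mark each CANNTG, the E-box letters that MyoD and myogenin can bind, except in the last sequence, where they mark GCTCG, the core of the ZBED6 motif.
Igf1r, chr7:75097463-75097712, plus strand: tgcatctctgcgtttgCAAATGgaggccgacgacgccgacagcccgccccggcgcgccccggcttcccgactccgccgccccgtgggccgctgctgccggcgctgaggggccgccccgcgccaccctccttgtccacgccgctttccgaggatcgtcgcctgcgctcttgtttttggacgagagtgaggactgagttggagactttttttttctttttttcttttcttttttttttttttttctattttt
Igfbp2, chr1:72870827-72871076, plus strand: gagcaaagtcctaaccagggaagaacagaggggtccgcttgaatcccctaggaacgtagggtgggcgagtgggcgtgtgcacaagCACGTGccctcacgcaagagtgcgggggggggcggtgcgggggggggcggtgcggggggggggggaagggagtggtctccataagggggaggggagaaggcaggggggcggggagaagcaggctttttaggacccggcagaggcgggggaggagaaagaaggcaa
Igfbp5, chr1:72921459-72921708, minus strand: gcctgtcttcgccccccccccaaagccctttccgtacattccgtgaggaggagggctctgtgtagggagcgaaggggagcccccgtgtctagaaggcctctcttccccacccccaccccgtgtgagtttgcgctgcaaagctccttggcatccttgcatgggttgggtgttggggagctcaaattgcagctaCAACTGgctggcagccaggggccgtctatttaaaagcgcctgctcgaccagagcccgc
Igf2, TSS 149845394, chr7:149845395-149845644, minus strand: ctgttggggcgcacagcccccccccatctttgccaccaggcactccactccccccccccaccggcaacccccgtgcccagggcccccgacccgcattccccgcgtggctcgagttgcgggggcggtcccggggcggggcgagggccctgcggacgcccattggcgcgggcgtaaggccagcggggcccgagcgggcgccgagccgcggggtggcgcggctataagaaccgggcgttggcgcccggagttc
Region downstream of Igf2, chr7:149785894-149786193, plus strand: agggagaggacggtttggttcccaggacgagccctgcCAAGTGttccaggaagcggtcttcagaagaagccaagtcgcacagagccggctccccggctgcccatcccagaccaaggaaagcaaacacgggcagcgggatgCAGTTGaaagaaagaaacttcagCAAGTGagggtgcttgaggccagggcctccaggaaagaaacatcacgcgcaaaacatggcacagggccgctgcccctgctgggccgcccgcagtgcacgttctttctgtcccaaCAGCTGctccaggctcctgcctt
ZBED6 site of Igf2, chr7:149850145-149850170, minus strand: gccccgacttcgcctagGCTCGcggc

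The 8 genes fell into a group of 4 with promoters marked as active in myoblasts (Igf1r, Igfbp2, Igfbp5 and Igfbp6) and a group of 4 without. Of the latter, Igf2 had no H3K4me3 or H3K27ac above the library mean at any start site, with few reads in its GC-rich windows. Igf1, Igfbp3 and Igfbp4 had H3K4 methylation at the main promoter (defined below) without H3K27ac above the library mean. In myoblasts their H3K4me3 stood at 10.1 fold for Igf1, 3.69 for Igfbp3 and 2.77 for Igfbp4. Their H3K4me2 stood at 24.1, 9.23 and 14.3 fold in that order. At the main promoter of each gene, the TSS with most H3K4me3 reads, the H3K4me3 level lay above the library mean with its whole interval for 7 of 8 genes in myoblasts and 5 of 8 in myotubes, against 54.6% and 54.3% of all promoters. For H3K27ac these counts were 4 of 8 and 3 of 8, against 51.6% and 50.6%. For H3K27me3 they were 4 of 8 (Igf2, Igfbp2, Igfbp3 and Igfbp4) and 1 of 8 (Igfbp4), against 18.1% and 12.6%, and several of these rested on 11 or 12 reads.

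**Figure D1:**
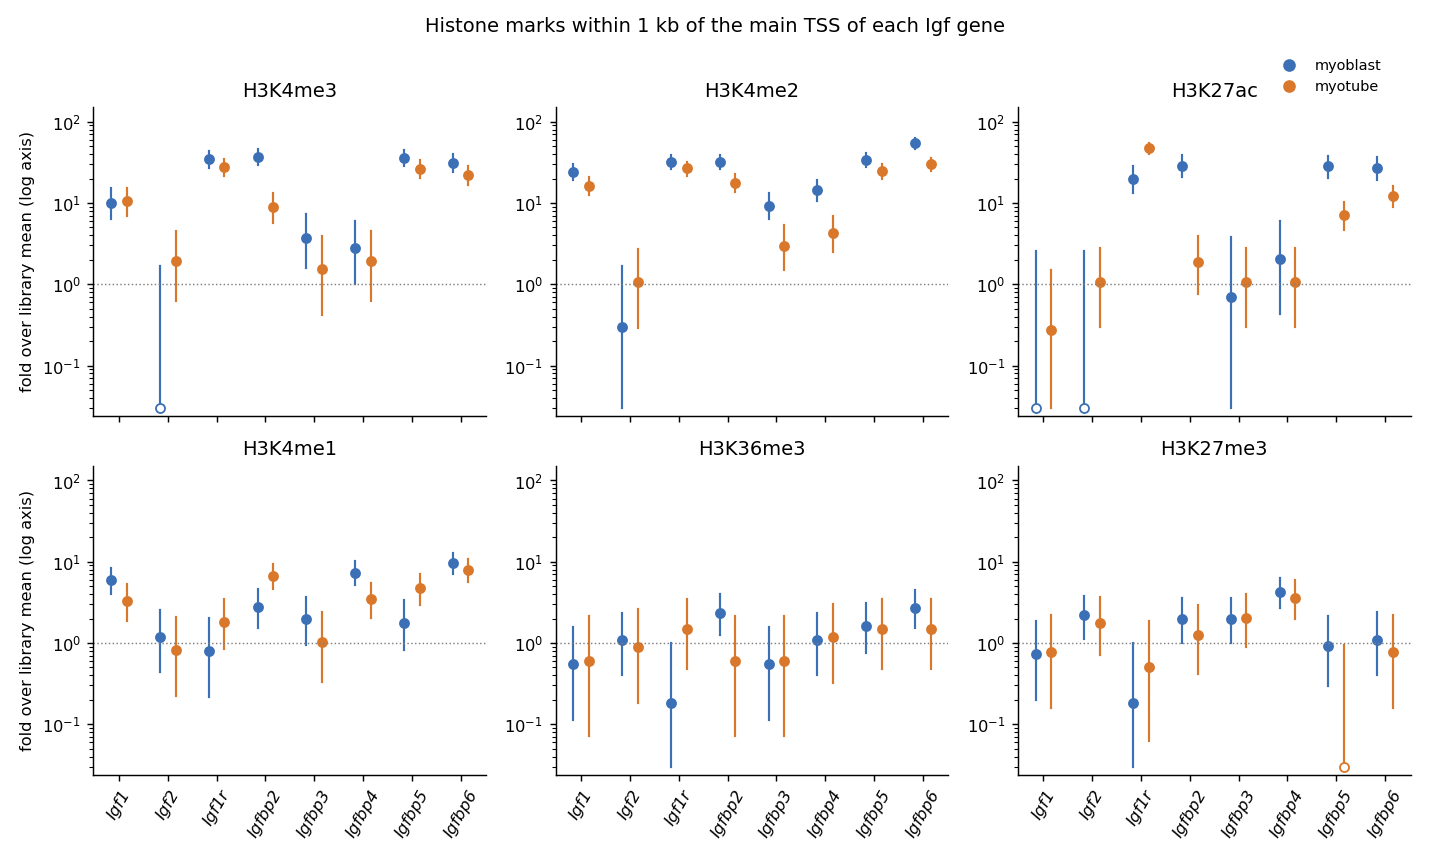
Level of each mark in the 2 kb centred on the main TSS of the 8 genes, as fold over the library mean on a log axis, for the myoblast (blue) and myotube (orange) library. Bars are 95% Poisson intervals, open circles at the lower edge are windows with 0 reads, and the dotted line is the library mean. Igf1r, Igfbp2, Igfbp5 and Igfbp6 stand above 10 for H3K27ac in myoblasts, and Igfbp2 drops to 1.89 in myotubes.

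Between the cell types, the H3K4me3 ratio was called lower for 1 (Igfbp2) of 5 genes with enough reads and higher for 0, against 8.03% lower and 3.88% higher over 11493 promoters. The H3K4me2 ratio was called lower for 2 (Igfbp3 and Igfbp4) of 7 and higher for 0, against 36.6% and 2.54%. The H3K27ac ratio was called lower for 3 (Igfbp2, Igfbp5 and Igfbp6) of 4 and higher for 1 (Igf1r), against 40.9% and 5.96%. The H3K4me1 ratio was called lower for 1 (Igfbp4) of 5 and higher for 2 (Igfbp2 and Igfbp5), against 20.5% and 9.94%. For H3K36me3 and H3K27me3 at the promoter only 1 gene each had enough reads (Igfbp6 and Igfbp4), and neither was called, against 16.4% lower and 9.38% higher for the first mark and 24.2% and 2.49% for the second. Over the gene body all 8 genes had enough reads. The H3K36me3 ratio was called lower for 1 (Igfbp2) and higher for 1 (Igf2), against 7.11% and 7.52% of 16040 genes, and the H3K27me3 ratio for 0 in either direction, against 1.75% lower and 8.73% higher of 16488 genes.

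After scaling by the median of marked promoters, the H3K27ac calls were 2 lower (Igfbp2 and Igfbp5) and 1 higher (Igf1r), against 13.1% and 15.7% of all promoters. The H3K4me2 calls were then 1 lower (Igfbp4) and 0 higher, against 11.1% and 7.67%. The call on Igfbp6 for H3K27ac and that on Igfbp3 for H3K4me2 therefore held only on the total-read scale.

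**Figure D2:**
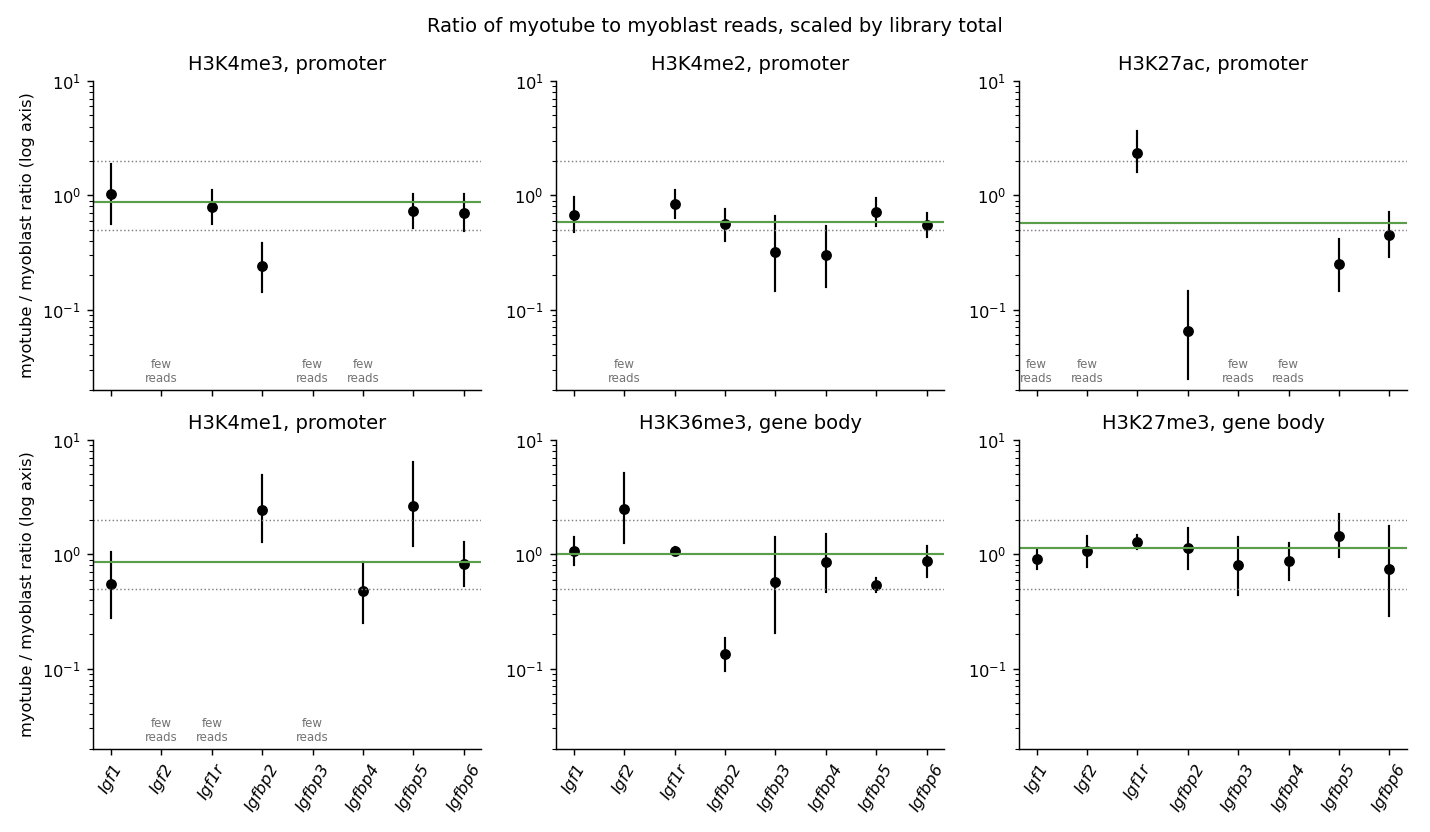
Myotube over myoblast ratio of each gene for 4 marks at the main promoter and 2 marks over the gene body, on a log axis, with 95% intervals from the read counts. Dotted lines mark the call limits of 0.5 and 2, the green line is the median over all genes tested, and genes with under 20 reads are marked as having few reads. Igf1r lies above the upper limit for H3K27ac and Igfbp2 lies far below the lower limit for H3K4me3, H3K27ac and H3K36me3.

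Igf2, which encodes the fetal growth factor IGF-II and is made by differentiating muscle cells, lies on the minus strand at chr7:149836673-149852721, with 9 annotated TSSs that form 6 groups no closer than 500 bp. No group had H3K4me3 or H3K27ac above the library mean in either cell type. Across the 6 windows H3K4me3 ranged from 0 to 1 read in myoblasts and from 0 to 5 in myotubes, H3K27ac from 0 to 2 and from 0 to 4, H3K4me2 from 1 to 2 and from 0 to 4, and H3K4me1 from 1 to 6 and from 1 to 4. The highest of these, 5 H3K4me3 reads in myotubes at the first TSS (149852721), gave a fold of 1.94 [0.629 to 4.52], and for a window with 0 H3K4me3 reads the upper end of the 95% interval is a fold of 1.70 in myoblasts and 1.43 in myotubes. The windows at TSSs 149845394 and 149844709 were 65.3% and 66.4% GC. They held only 27 reads each over the 12 libraries, against 52 at the first TSS, so an absence of marks there rests on few reads. No library without antibody was used, so the number of reads these windows would hold without enrichment was not tested. By qPCR the paper reports very low Igf2 mRNA in undifferentiated C2C12 cells and a dramatic increase on differentiation. By RNA-seq the paper also detected Igf2 in siRNA-transfected C2C12 cells. How this expression and its rise relate to the marks at these start sites was not tested.

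H3K27me3 was the mark that Igf2 did carry. At TSS 149847210 it held 29 reads in myoblasts (fold 5.28 [3.54 to 7.59]) and 7 in myotubes (1.78 [0.717 to 3.68]), a ratio of 0.338 [0.125 to 0.788]. The overlapping window at TSS 149847775 held 27 reads (4.92 [3.24 to 7.16]) and 11 (2.80 [1.40 to 5.02]), a ratio of 0.570 [0.255 to 1.19] whose interval included 1. At the most downstream group (149843401) both libraries held 11 reads. Over the whole gene the level was alike in both: 98 reads (2.23 [1.81 to 2.71]) in myoblasts and 75 (2.38 [1.88 to 2.99]) in myotubes, a ratio of 1.07 [0.782 to 1.46]. H3K36me3 over the gene was below the library mean in myoblasts, with 15 reads (0.340 [0.190 to 0.561]). In myotubes it held 23 (0.85 [0.539 to 1.28]), an interval that included the mean. Its ratio of 2.50 [1.25 to 5.15] was the call named above, and it came to 1.57 after thinning every library to the smallest.

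At the ZBED6 site, which the annotation places in an intron of Igf2, the 1 kb around it held 14 H3K27me3 reads in myoblasts (5.10 [2.79 to 8.56]) and 7 in myotubes (3.57 [1.44 to 7.36]). No other mark there exceeded 4 reads in any of the other 10 libraries. Both H3K27me3 levels lay above the library mean with their whole intervals.

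In the 116 bins of 1 kb from 50 kb before to 50 kb after Igf2, a bin was called enriched where the lower bound of its level was at least 3. For H3K27ac this gave 0 bins in myoblasts and 2 in myotubes, against 2.09% and 2.59% of all bins of the genome. For H3K4me1 it gave 4 and 1, against 3.92% and 3.76%, and for H3K27me3 1 and 1, against 1.17% and 0.653%. The 2 H3K27ac bins adjoined at chr7:149786673-149788672, between genes and at the edge of the window, with 2 reads in myoblasts and 91 in myotubes (fold 24.6 [19.8 to 30.2]). The first of them (chr7:149786673-149787672) was also the single H3K4me2 bin (6 and 13 reads) and the single myotube H3K4me1 bin (15 and 25 reads, called in both cell types). The other H3K4me1 bins were called in myoblasts, at chr7:149799673-149800672 between genes (17 reads, and 2 in myotubes) and at chr7:149884673-149886672 on an exon of the insulin gene Ins2 (34 and 19 reads). The H3K27me3 bins were chr7:149846673-149847672 on Igf2 and its antisense gene Igf2as in myoblasts (21 reads, and 4 in myotubes) and chr7:149805673-149806672 between genes in myotubes (13 reads, and 9 in myoblasts).

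The H3K27ac bins were the near end of a larger marked region that crossed the 50 kb border, and it was followed further after its values were seen. In 1 kb bins of the whole domain the myotube run covered chr7:149784704-149787703, 3000 bp that lie 49.0 to 52.0 kb downstream of the Igf2 3′ end and 20.7 kb from H19, with no annotated gene. Its H3K27ac reads, which chose it, were 6 in myoblasts (fold 2.75 [1.01 to 5.99]) and 241 in myotubes (43.5 [38.2 to 49.3]).

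The other marks of this region, which did not choose it, also differed. H3K4me1 held 28 reads in myoblasts (3.69 [2.45 to 5.33]) and 65 in myotubes (8.84 [6.82 to 11.3]), a ratio of 2.40 [1.52 to 3.88]. H3K4me2 held 11 and 41 reads (ratio 3.36 [1.70 to 7.26]) and H3K4me3 only 2 and 15. H3K27me3 went the other way, from 41 reads in myoblasts (4.98 [3.58 to 6.76]) to 2 in myotubes (0.340 [0.0412 to 1.23]), a ratio of 0.0683 [0.008 to 0.263]. In the 5 kb on either side H3K27me3 was also lower in myotubes but less so, with 42 and 14 reads towards H19 (ratio 0.466 [0.235 to 0.871]) and 32 and 15 towards Igf2 (0.656 [0.330 to 1.25]). The 300 bases printed above, the densest part for H3K27ac, hold 4 CANNTG sequences, of which 1 is CAGCTG, and 1 GCTCG. Among windows of the same length at the centres of 32765 myotube H3K27ac peaks more than 2000 bp from a TSS, 83.9% hold a CANNTG, 23.6% a CAGCTG and 12.2% a GCTCG.

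**Figure D3:**
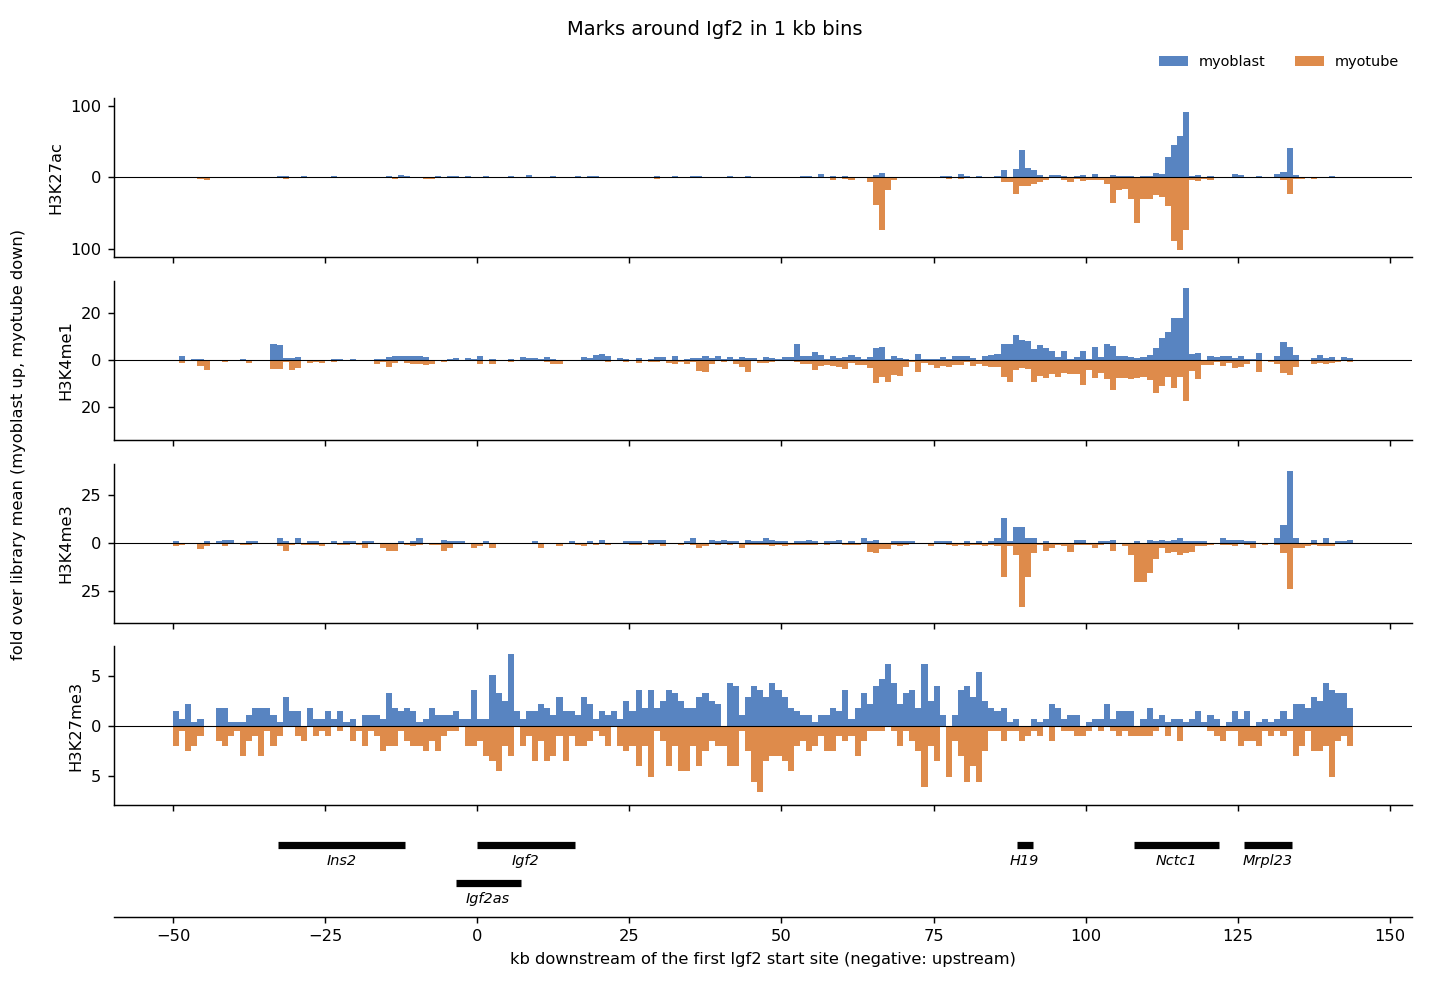
Marks in 1 kb bins from 50 kb upstream of Igf2 to beyond Mrpl23, as fold over the library mean, with myoblasts drawn upward and myotubes downward, each panel on its own scale. The axis is the distance in kb downstream of the first Igf2 start site, and bars below are annotated genes. The H3K27ac region about 66.5 kb downstream of that start site averages 43.5 fold over its 3000 bp in the myotube library and 2.75 in the myoblast library. Its central bin stands at 74.2 and 5.50 fold. H3K27me3 has a gap there in myotubes. Igf2 itself shows H3K27me3 and little or no H3K27ac or H3K4me3, and its GC-rich start-site windows held few reads over the 12 libraries.

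Igf1, which encodes IGF-I, the ligand that drives postnatal muscle growth, lies on the plus strand at chr10:87321010-87399792, with 9 TSSs in 4 groups whose windows overlap. Its main promoter (TSS 87322775) had H3K4 methylation without acetylation. H3K4me3 held 22 reads in myoblasts (10.1 [6.36 to 15.4]) and 27 in myotubes (10.5 [6.90 to 15.2]), a ratio of 1.03 [0.566 to 1.90]. H3K4me2 held 81 reads (24.1 [19.2 to 30.0]) and 61 (16.4 [12.5 to 21.1]), a ratio of 0.680 [0.479 to 0.959], which was 1.09 after division by the median of marked promoters. H3K27ac held 0 reads in myoblasts, for which the upper end of the 95% interval is a fold of 2.54, and 1 in myotubes (0.271 [0.00685 to 1.51]). For comparison, the median marked promoter stood at 25.4 for H3K27ac in myoblasts and 13.8 in myotubes, and at 33.6 and 28.7 for H3K4me3.

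At the last 2 groups of Igf1 start sites the pattern was alike, while the first group had no H3K4me3 above the library mean. Across all 4 groups H3K27ac did not exceed 3 reads in either library. The group next to the main one (87323351) held 20 and 28 H3K4me3 reads, the last group (87324074) 10 and 19, and the first (87321010) 4 and 2. The H3K4me1 ratio at the main promoter was not called, with 30 reads (5.92 [3.99 to 8.45]) and 16 (3.26 [1.86 to 5.30]), a ratio of 0.551 [0.280 to 1.04]. The other groups held 38 reads in myoblasts (7.50 [5.31 to 10.3]) and 17 in myotubes (3.46 [2.02 to 5.55]) at 87323351, 35 and 16 at 87321010, and 31 and 10 at 87324074. Their ratios, 0.462 [0.245 to 0.839], 0.472 [0.244 to 0.876] and 0.333 [0.146 to 0.697] in that order, met the limit for lower. Across the gene, H3K36me3 stayed below the library mean in both libraries, with 135 reads (0.623 [0.523 to 0.738]) and 89 (0.670 [0.538 to 0.825]), and H3K27me3 was near it, with folds of 1.14 [1.0 to 1.29] and 1.04 [0.882 to 1.21].

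In the 178 bins of the Igf1 locus, 8 bins (4.49%) were enriched for H3K4me1 in myoblasts and 0 in myotubes, against 3.92% and 3.76% of all bins, with 0 bins for H3K27ac or H3K27me3 in either. The myoblast H3K4me1 bins formed 6 runs. Both bins at the promoter held 24 reads (chr10:87321010-87322009, 7 in myotubes) and 26 (chr10:87323010-87324009, 8 in myotubes). Inside the introns, chr10:87342010-87344009 held 38 reads in myoblasts and 10 in myotubes (ratio 0.272 [0.121 to 0.556]), chr10:87347010-87349009 held 34 and 18 (0.547 [0.291 to 0.996]), and chr10:87389010-87390009 held 22 and 11 (0.516 [0.226 to 1.11]). The last run, chr10:87275010-87276009, lay 45.5 kb before the gene with 14 and 6 reads. H3K4me3 and H3K4me2 were each enriched in a single run, chr10:87322010-87324009, in both cell types. These bins were called in myoblasts, so their lower myotube counts were in part fixed by the choice, and 3 myotube bins were enriched when the limit was lowered to 2-fold.

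**Figure D4:**
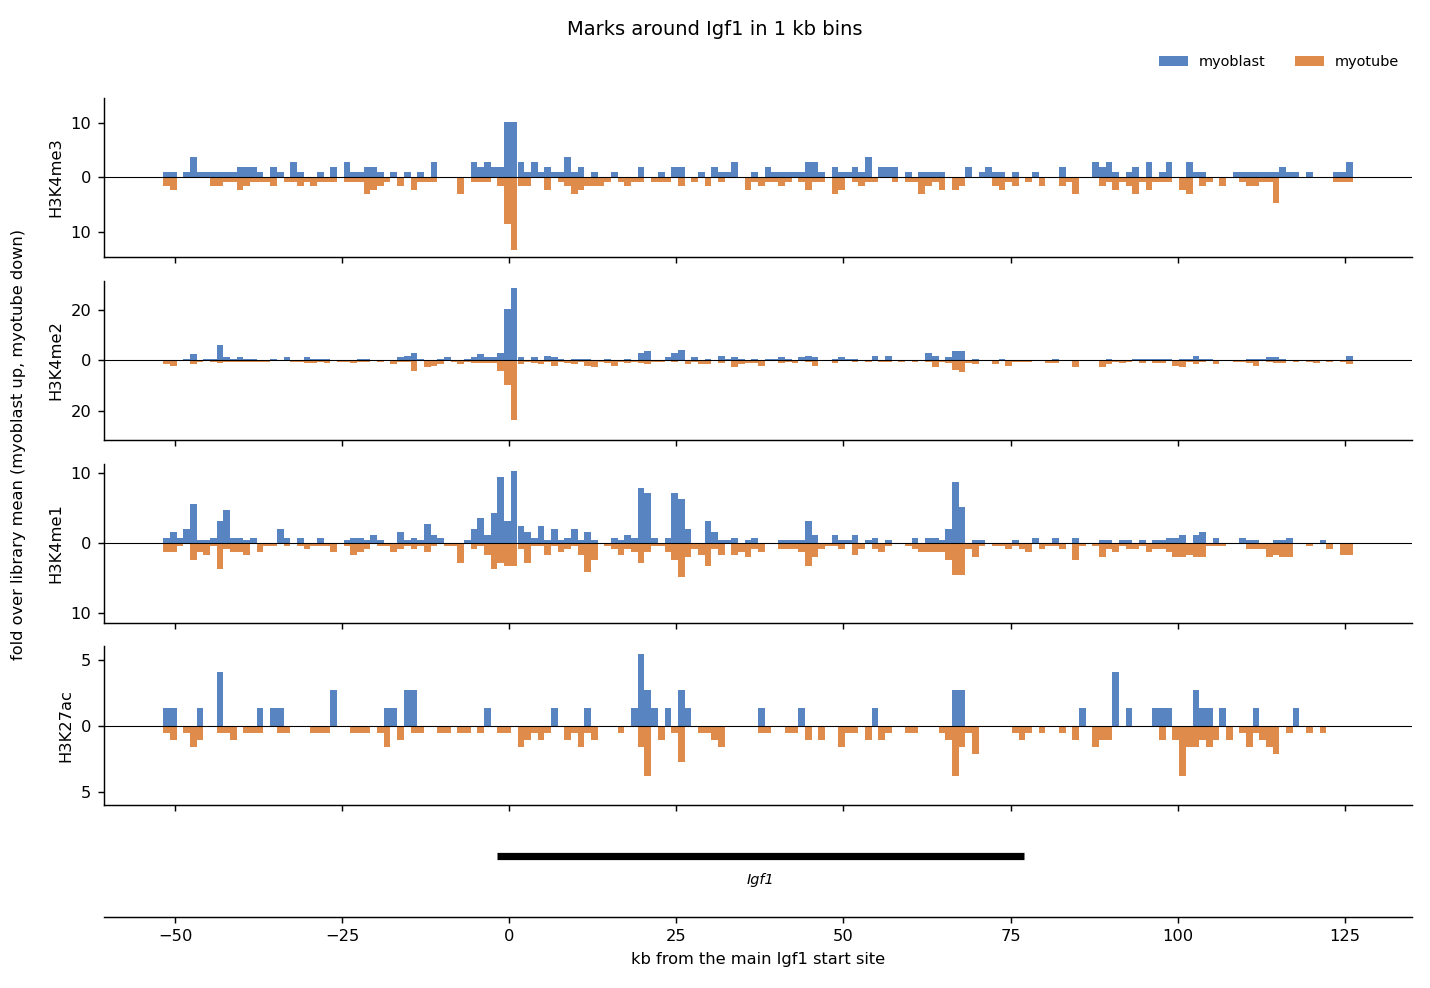
Marks in 1 kb bins from 50 kb before to 50 kb after Igf1, as fold over the library mean, with myoblasts upward and myotubes downward, each panel on its own scale. The axis is the distance in kb from the main Igf1 start site. H3K4me3 and H3K4me2 stand at the start site in both cell types, H3K4me1 stands at the start site and at intron sites in myoblasts, and H3K27ac has no bin above 6-fold.

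Igf1r, the receptor gene, lies on the plus strand at chr7:75097713-75371484. Its main promoter was active in both cell types and was the 1 promoter among the 8 genes called higher for H3K27ac. H3K27ac held 29 reads in myoblasts (19.9 [13.4 to 28.6]) and 175 in myotubes (47.3 [40.6 to 54.9]), intervals that did not overlap. The ratio was 2.37 [1.6 to 3.65], and 4.20 after division by the median of marked promoters. The 1 kb before the TSS held 14 and 113 reads (3.17 [1.82 to 5.99]) and the 1 kb after it 15 and 62 (1.63 [0.914 to 3.08]), intervals that overlapped. In the 2 kb downstream of the TSS the ratio was 1.66 and no longer called. H3K4me3 did not follow, with 75 reads (34.6 [27.2 to 43.3]) and 71 (27.5 [21.5 to 34.7]), a ratio of 0.796 [0.567 to 1.12], nor did H3K4me2, with 107 and 99 reads (0.835 [0.629 to 1.11]). H3K36me3 over the gene body was 2.72 [2.60 to 2.84] and 2.93 [2.77 to 3.09] on 2044 and 1351 reads, a ratio of 1.08 [1.01 to 1.16] beside the median of 1.01 over all genes.

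Within the Igf1r gene, 10 of 273 bins were enriched for H3K27ac in myoblasts and 21 in myotubes, 5 of them in both (3.66% and 7.69%, against 2.09% and 2.59% of all bins). The libraries held 1857191 and 4721345 reads, so the counts are not at equal depth. For H3K4me1, 36 and 33 bins were enriched and 14 in both (13.2% and 12.1%, against 3.92% and 3.76%). Among the runs of enriched H3K27ac bins, the densest in both libraries was chr7:75165713-75167712, 68.0 kb into the gene. It held 92 reads (63.3) and 161 (43.6), a ratio of 0.688 [0.530 to 0.899]. These bins start at the TSS and leave out the upstream side of the promoter, whose 2 kb window stood higher in myotubes, at 47.3 fold. Other sites were marked in the myotube library and hardly in the myoblast library, and their H3K27ac reads chose them. At chr7:75359713-75362712, near the 3′ end, 2 and 142 H3K27ac reads were found (ratio 27.9 [7.59 to 233]), and at chr7:75365713-75369712 there were 8 and 105 (5.16 [2.53 to 12.3]). At chr7:75143713-75145712, 46.0 kb into the gene, the counts were 0 and 34. H3K4me1, also called on its own myotube reads, stood over the 3′ site too, with 4 and 42 reads over chr7:75359713-75361712 (10.8 [3.93 to 41.6]). At the second annotated TSS (75293457) H3K27ac held 9 reads in each library, and H3K4me1 57 reads (11.2 [8.52 to 14.6]) in myoblasts and 28 (5.71 [3.79 to 8.25]) in myotubes.

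Igfbp2 has a product that binds IGF-II more tightly than IGF-I. Among the comparisons counted above (6 marks at the promoter, H3K36me3 and H3K27me3 over the gene body), it was called lower for more marks than any other of the 8 genes. It lies on the plus strand at chr1:72871077-72899048, and its main promoter is at TSS 72871896. H3K4me3 held 81 reads in myoblasts (37.3 [29.7 to 46.4]) and 23 in myotubes (8.92 [5.65 to 13.4]), a ratio of 0.239 [0.143 to 0.383]. H3K27ac held 42 reads (28.9 [20.8 to 39.0]) and 7 (1.89 [0.761 to 3.90]), a ratio of 0.0656 [0.0249 to 0.147], or 0.116 after division by the median of marked promoters. H3K36me3 over the gene body held 511 reads (6.64 [6.08 to 7.25]) and 42 (0.891 [0.642 to 1.2]), a ratio of 0.134 [0.0954 to 0.184]. None of these 3 pairs of intervals overlapped.

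Not every mark of the Igfbp2 promoter was lower in this way. H3K4me2 held 107 and 66 reads (31.9 [26.1 to 38.5] and 17.7 [13.7 to 22.6]), a ratio of 0.557 [0.403 to 0.764] close to the median of all promoters, or 0.896 after division by the median of marked promoters. H3K4me1 was called higher in myotubes, with 14 reads (2.76 [1.51 to 4.64]) and 33 (6.73 [4.63 to 9.45]), a ratio of 2.43 [1.27 to 4.92], but not after thinning every library to the smallest. At the first group of start sites (72871141) it went the other way, with 31 reads (6.12 [4.16 to 8.68]) and 24 (4.89 [3.13 to 7.28]). The H3K4me3 ratio was 0.0841 [0.0219 to 0.233] in the 1 kb downstream of the TSS (40 and 4 reads) and 0.390 [0.214 to 0.687] in the 1 kb upstream (41 and 19 reads). H3K27me3 was not higher in myotubes: it held 11 reads (2.00 [1.0 to 3.59]) and 5 (1.27 [0.414 to 2.97]) at the promoter and had a ratio of 1.13 [0.749 to 1.70] over the gene. The third group of start sites, at 72895273, held at most 4 H3K4me3 reads in either library and 11 H3K27ac reads in each.

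Igfbp5, the next gene on the chromosome, lies on the minus strand at chr1:72904506-72921458, so that both genes end towards each other 5458 bp apart. Its product is the binding protein long known from differentiating C2C12 cells. At the main promoter (TSS 72920849) H3K4me3 differed little, with 78 reads (36 [28.4 to 44.9]) and 68 (26.4 [20.5 to 33.4]), a ratio of 0.733 [0.522 to 1.03]. H3K27ac held 41 reads (28.2 [20.2 to 38.3]) and 26 (7.03 [4.59 to 10.3]), a ratio of 0.249 [0.147 to 0.418], and 0.441 after division by the median of marked promoters. H3K4me1 was called higher, with 9 and 23 reads (2.64 [1.18 to 6.48]), but not after thinning, and at the first TSS (72921458) it held 19 reads (3.75 [2.26 to 5.86]) and 21 (4.28 [2.65 to 6.54]). H3K36me3 over the gene body was the highest of the 8 genes in both libraries, 15.8 [14.7 to 17] on 737 reads and 8.54 [7.50 to 9.68] on 244 (in myotubes within counting error of Igfbp6), and its ratio of 0.540 [0.465 to 0.625] stopped short of the call limit.

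The marks of Igfbp5 reached beyond its start site. An H3K4me3 peak of the myotube list over an intron, chr1:72916649-72919380, held 80 and 88 H3K4me3 reads (27 and 25 fold) and 34 and 62 H3K27ac reads (17.1 and 12.3 fold), ratios of 0.925 [0.676 to 1.27] and 0.717 [0.465 to 1.12]. At chr1:72924077-72926076, 2.62 to 4.62 kb upstream of the first TSS and chosen after its values were seen, H3K27ac held 36 reads (24.8 fold) and 22 (5.95 fold), a ratio of 0.240 [0.135 to 0.420], and H3K4me1 61 and 25 (0.423 [0.255 to 0.684]). H3K27ac was lower in myotubes at the Igfbp5 promoter, and the interval of the intron site included 1. The upstream site stood high in myoblasts when chosen, which in part fixes its ratio. The intron site came from a myotube peak list, so the ratios of both sites cannot be compared.

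**Figure D5:**
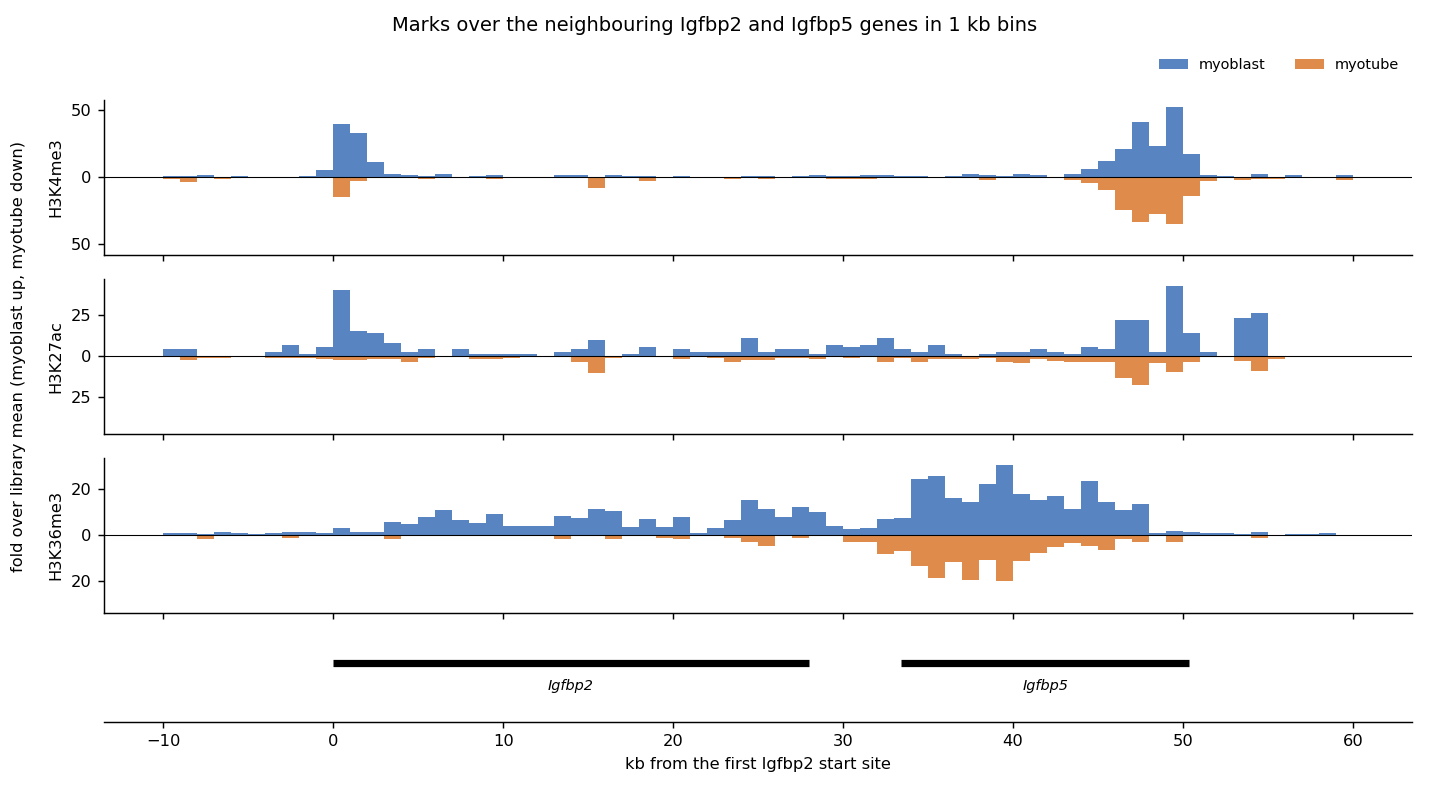
Marks in 1 kb bins across the neighbouring Igfbp2 and Igfbp5 genes, as fold over the library mean, with myoblasts upward and myotubes downward, each panel on its own scale. The axis is the distance in kb from the first Igfbp2 start site. H3K36me3 covers both genes in myoblasts and mainly Igfbp5 in myotubes. The Igfbp2 promoter has less H3K4me3 in myotubes than in myoblasts, though above the library mean, and keeps little H3K27ac.

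Igfbp6, whose product prefers IGF-II, is a short gene on the plus strand at chr15:101974793-101979942 with 1 TSS. H3K4me3 held 68 reads (31.3 [24.3 to 39.7]) and 57 (22.1 [16.7 to 28.6]), a ratio of 0.705 [0.487 to 1.02]. H3K4me2 was the highest of the 8 genes in both libraries, with 182 reads (54.2 [46.6 to 62.7]) and 112 (30.1 [24.8 to 36.2]), in myotubes within counting error of Igf1r. H3K27ac held 39 reads (26.8 [19.1 to 36.7]) and 45 (12.2 [8.88 to 16.3]), a ratio of 0.454 [0.289 to 0.716] that became 0.803 after division by the median of marked promoters. Over the whole gene, which includes sites downstream of the promoter window, H3K27ac held 111 and 79 reads (29.7 and 8.30 fold), a ratio of 0.280 [0.207 to 0.377]. That ratio is on the total-read scale, where the median marked promoter stood at 0.565, and no share over all gene bodies is given for this mark. H3K36me3 across the gene was 8.33 [6.90 to 9.98] and 7.26 [5.58 to 9.28], a ratio of 0.871 [0.631 to 1.19].

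Igfbp3, the gene of the main IGF carrier of blood plasma, lies on the minus strand at chr11:7106089-7113926 and had few active marks. H3K4me3 held 8 reads in myoblasts (3.69 [1.59 to 7.27]) and 4 in myotubes (1.55 [0.423 to 3.97]), H3K27ac 1 and 4, and H3K27me3 11 and 8 (2.00 [1.0 to 3.59] and 2.04 [0.881 to 4.02]). H3K4me2 was the only mark at its promoter with enough reads for a call, with 31 reads (9.23 [6.27 to 13.1]) and 11 (2.96 [1.48 to 5.29]), a ratio of 0.320 [0.145 to 0.655], or 0.516 after division by the median of marked promoters. Gene-body H3K36me3 did not exceed the library mean (0.928 [0.567 to 1.43] and 0.530 [0.213 to 1.09]).

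Igfbp4, whose product is an inhibitor of IGF action that the protease pappalysin cuts, lies on the plus strand at chr11:98902558-98913969 with 4 start sites in 4 groups. Its main promoter joined H3K4me2 and H3K4me1 with the most H3K27me3 reads of the 8 main promoters, within counting error of the next gene in both libraries. H3K4me2 held 48 reads (14.3 [10.5 to 19]) and 16 (4.30 [2.46 to 6.98]), a ratio of 0.301 [0.159 to 0.539], or 0.484 after that division. H3K4me1 held 37 reads (7.30 [5.14 to 10.1]) and 17 (3.46 [2.02 to 5.55]), a ratio of 0.474 [0.251 to 0.864]. H3K27me3 held 23 reads (4.19 [2.66 to 6.29]) and 14 (3.57 [1.95 to 5.99]), a ratio of 0.852 [0.405 to 1.73], and over the gene it stood at 2.62 [2.08 to 3.25] and 2.28 [1.70 to 3.00]. H3K4me3 held 6 and 5 reads, of which the myoblast level of 2.77 [1.01 to 6.02] lay just above the library mean, and H3K27ac held 3 and 4 reads.

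Ordered by H3K4me3 at the main promoter, Igfbp2, Igfbp5, Igf1r and Igfbp6 led in myoblasts with 81, 78, 75 and 68 reads, and neighbours among them did not differ beyond counting error. Igf1 followed at 22 reads, below Igfbp6 by a factor of 3.09 [1.89 to 5.25], then Igfbp3 at 8 (2.75 [1.18 to 7.14] below Igf1), Igfbp4 at 6 and Igf2 at 0. In myotubes Igf1r, Igfbp5 and Igfbp6 led with 71, 68 and 57 reads, Igf1 (27) and Igfbp2 (23) followed without a difference between them, and Igf2, Igfbp4 and Igfbp3 had 5, 5 and 4 reads. By H3K27ac, the same 4 genes led in myoblasts with 42 to 29 reads and no difference between neighbours. In myotubes the order was Igf1r (175), Igfbp6 (45), Igfbp5 (26) and Igfbp2 (7), each above the next beyond counting error, by factors of 3.89 [2.79 to 5.52], 1.73 [1.05 to 2.92] and 3.71 [1.57 to 10.1].

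The promoters of the 8 genes differed in sequence without sorting by their marks. In the window from 250 bases before to 50 after the main TSS, the median promoter held 13 CpG dinucleotides and was 56.7% GC. Igfbp3 (37 CpG) and Igfbp4 (27 CpG), which carried little H3K4me3 or H3K27ac, were as rich as Igf1r (29 CpG), while Igfbp6 (7), Igfbp2 (9) and Igfbp5 (10) lay below the median and were marked (the first Igfbp2 start sites, under the same H3K4me3 peak, held 24), and Igf1 and Igf2 held 2 each. The Igf2 window at TSS 149845394, printed above in part, held 37 CpG and 3 GCTCG and had no H3K4me3 read in either library. Over all 23 TSS groups of the 8 genes, CAGCTG was found at 3 (2 of Igf1 and 1 of Igfbp4), CANNTG at 18, GCTCG at 6, the MEF2 motif (CTA and TAG parted by 4 bases of any kind) at 0 and TATAAA at 2 (1 of Igf1 and 1 of Igfbp4), on either strand, and every CAGCTG is also counted as a CANNTG. At the 8 main promoters alone, CAGCTG was found at 0, CANNTG at 7, GCTCG at 2, the MEF2 motif at 0 and TATAAA at 1. Of 22345 promoters, 1 per gene, 15.4% held CAGCTG, 67.7% CANNTG, 37.2% GCTCG, 3.28% the MEF2 motif and 12.5% TATAAA. A match gives the letters only and no binding.

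The deposited MACS peaks, read with the samples they came with, overlapped the main promoter of 5 genes (Igf1, Igf1r, Igfbp2, Igfbp5 and Igfbp6) for H3K4me3 in both cell types, of 6 and 5 genes for H3K4me2, and of 4 (Igf1, Igfbp2, Igfbp4 and Igfbp6) and 1 (Igfbp6) for H3K4me1. The myotube H3K27ac list had peaks at Igf1r, Igfbp5 and Igfbp6. The lists deposited with the myoblast H3K27ac and H3K27me3 samples held each other's regions: the H3K27ac reads were at 0.588 fold in the first and 36.4 fold in the second. Taken as deposited, the myoblast H3K27ac list marked 1 promoter (Igfbp4) and the H3K27me3 list 4 (Igf1r, Igfbp2, Igfbp5 and Igfbp6). Exchanged, they gave 4 for H3K27ac and 1 for H3K27me3. The list deposited with H3K27ac also held chr7:149846620-149847850 on Igf2, where the H3K27me3 reads described above lie. No level or ratio above uses these lists.

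Of 28 other genes of the pathway (receptors, further binding proteins, proteases, signal proteins and neighbours of Igf2), 15 had enough H3K27ac reads, of which 2 were called higher and 5 lower, against 5.96% higher and 40.9% lower over all promoters. After division by the median of marked promoters the counts were 4 higher (Akt1, Akt2, Mtor and Foxo1) and 1 lower (Igf2r), against 15.7% and 13.1%. Akt2, a kinase that carries the insulin and IGF signal, was higher, with 31 reads (21.3 fold) and 207 (56.0 fold), a ratio of 2.63 [1.79 to 3.97], or 4.65 after the division. The largest changes among those called lower were in Igf2r, the receptor that clears IGF-II (24 and 16 reads, 0.262 [0.130 to 0.515]), Stc2, an inhibitor of pappalysin (45 and 37 reads, 0.323 [0.204 to 0.511]), and Irs1, the docking protein of the receptor (53 and 47 reads, 0.349 [0.230 to 0.527]). After the division these ratios were 0.464, 0.572 and 0.617, so that only Igf2r was still called. The median H3K27ac ratio of the list was 0.614 beside 0.577 over all promoters.

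H3K36me3 over the gene body passed for 27 pathway genes, with 3 called higher and 1 lower, against 7.52% and 7.11% of all genes. Foxo1, a transcription factor that the signal inactivates, was higher, with 291 reads (1.29 fold) and 365 (2.65 fold), a ratio of 2.05 [1.75 to 2.39]. Igfbpl1 (28 and 35 reads) and Igf2as (10 and 15 reads) were called on levels near or below the library mean. Irs1 was lower with 1020 reads (6.36 fold) and 224 (2.28 fold), a ratio of 0.358 [0.309 to 0.414], as for H3K27ac.

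The remaining pathway calls are named after their values were seen. Foxo1 was the other gene higher for H3K27ac (17 and 97 reads, 2.24 [1.33 to 4.01]), or 3.97 after the division, and Insr and Pik3r1 the others lower. For H3K4me3, 1 of 17 was higher (H19, 15 and 66 reads, 3.70 [2.09 to 6.98]) and 2 were lower (Irs2 and Igfbp7), against 3.88% and 8.03%. For H3K4me2, 0 of 19 were higher and 6 lower, against 2.54% and 36.6%, and 3 were lower after the division (Irs2, Igfbp7 and Grb14), against 11.1%. For H3K4me1, 0 of 17 were higher and 3 lower (Irs2, Stc2 and H19), against 9.94% and 20.5%. At the promoter, Stc2 was lower of 3 for H3K36me3 and Igf2bp3 of 3 for H3K27me3, against 16.4% and 24.2%, with 0 higher. For H3K27me3 over the gene body 3 of 27 were higher (Akt1, Akt2 and Mtor, all on myotube levels of at most 1.30 fold) and 0 lower, against 8.73% and 1.75%.

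By the distance of log2 levels over the 12 libraries, the promoters most like that of Igf1 were those of Tyro3, Ccdc39 and Fbxl21, at distances of 2.28, 2.53 and 2.56, and those most like the first promoter of Igf2 were Stra8, Gm5460 and Dmc1, at 1.88, 1.94 and 1.97. Such likeness was common: 706 promoters lay within a factor of 2 of the smallest distance for Igf1 and 1474 for Igf2.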

How the data were processed

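ChIP-seq reads of 6 histone marks in C2C12 myoblasts and myotubes were used as deposited, 1 library each. The authors aligned reads to mm9 with Mosaik, kept unique alignments and called peaks with MACS; the deposited read files give 1 line per read, taken here as counts, and the deposited peak files carry a MACS score. Their names show merged runs, and whether these were technical or biological repeats is not given in the sources used here.

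Reads were extended to 150 bp and counted by their midpoint on chromosomes 1 to 19 and X (2555806925 bases other than N), in Python 3.11.15 (scipy 1.17.1 for intervals, pandas 2.3.3, numpy 2.4.6; plots with matplotlib 3.10.9). Genes came from the GENCODE annotation of NCBIM37, the same build as mm9. Groups came from the sample titles. The interval and call functions were tested on simulated data. The 8 genes always appear; pathway genes appear with values if called for H3K27ac or gene-body H3K36me3 (at most 4 with the largest change of each), loci by runs of enriched bins, and likeness by the 3 nearest promoters. Members, lists and rules were chosen with earlier results of these data known. Alternatives covered scaling, windows, extension, repeated reads, depth, filters and peak limits.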

Additional observations from a re-analysis of the deposited data

How the results depend on the processing

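Of the counts over the 8 genes recomputed under each alternative, 234 stayed within 1.5 times and 42 moved. No ratio that was called changed direction. Where the cause is not the alternative's own construction, it was not tested.

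For promoter ratios, windows of 500 bp either side gave 2 lower for H3K4me3 and 1 higher for H3K4me1. Windows of 2 kb downstream gave 0 higher for H3K27ac, 3 lower for H3K4me1, and 2 genes above the library mean for H3K27me3 in each cell type. Scaling by windows outside peaks gave 6 lower for H3K4me2, and 1 higher and 2 lower for H3K4me1. Scaling by marked promoters gave 1 lower for H3K4me2 and 1 higher for gene-body H3K27me3. Without a filter on reads, 1 was higher and 2 lower for H3K4me3, 1 higher for H3K4me2, 3 higher for H3K27ac, and 1 higher and 1 lower for each of H3K36me3 and H3K27me3. With at least 50 reads, 1 was lower for H3K4me2, 0 higher for H3K4me1 and 0 higher for gene-body H3K36me3.

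Thinning to the smallest library gave 0 higher for H3K4me1, 0 higher for gene-body H3K36me3 and 2 genes above the mean for H3K27me3 in each cell type. Reads not extended, or 5 reads added, gave 0 lower for H3K4me1. Gene bodies without the first 2 kb gave 2 lower for H3K36me3.

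In locus bins, extension to 250 bp left 1 myotube H3K27ac bin at Igf2. A lower bound of 2-fold gave 4 myotube H3K4me1 bins at Igf2, 8 and 7 H3K27me3 bins there in myoblasts and myotubes, 3 myotube H3K4me1 bins at Igf1 and 5 myoblast H3K27me3 bins at Igf1.

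For deposited peaks, a score of at least 100 left 0 genes for myoblast H3K27ac, 2 for myoblast H3K4me1 and 0 for myotube H3K4me1, 500 bp of overlap left 0 for myoblast H3K27ac and 0 for myotube H3K4me1, and the exchange of the myoblast lists gave 4 for H3K27ac and 1 for H3K27me3.

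No paired analysis was possible because each mark and cell type has 1 library, and for the same reason no replicate was left out. At the myoblast H3K27ac depth, the 95% interval of 0 reads in 2 kb reaches a fold of 2.54.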

Other observations

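Beyond the 50 kb border of Igf2, the domain shared with H19 held stronger marks than Igf2 itself. Over the 5′ part of Nctc1, a noncoding gene expressed in muscle that starts at 149744501 on the minus strand, and upstream of it, the myotube run of enriched H3K27ac bins spanned chr7:149735704-149749703, 14 bins with 176 reads in myoblasts (17.3 fold) and 1085 in myotubes (42.0 fold), a ratio of 2.42 [2.07 to 2.86]. The bins were chosen by their myotube H3K27ac, which in part fixes this ratio. The 4 bins at its distal end (chr7:149735704-149739703) were marked in both libraries, with 162 reads (55.7 fold) and 561 (75.9 fold), a ratio of 1.36 [1.14 to 1.63], so that the remaining bins held 14 and 524 reads. H3K4me1 over the same 14 bins differed less, with 291 and 336 reads (1.19 [1.02 to 1.40]).

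H19, the noncoding gene imprinted opposite to Igf2, had 15 H3K4me3 reads at its promoter in myoblasts (6.91 fold) and 66 in myotubes (25.6 fold), with 37 and 48 H3K27ac reads (0.510 [0.325 to 0.806]) and gene-body H3K36me3 of 4.03 and 4.08 fold. In the same myotube libraries no Igf2 start site exceeded 5 H3K4me3 reads, though the GC-rich Igf2 windows held few reads of any mark.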
